A study of Mus musculus with 4 samples.

Results

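The genes described are 10 members of the epidermal growth factor (EGF) family in the inflamed mouse colon, chosen by name: the ligands Areg, Ereg, Hbegf, Tgfa, Btc, Egf and Nrg1 and the receptors Egfr, Erbb2 and Erbb3. All 10 of the 10 were found among 20832 genes named on the array, through 12 probes, and all 10 were among the 15551 genes tested. STAP-2-/- mice, which lack the signalling adaptor STAP-2, were compared with wild-type (WT) mice. Both groups were of the C57BL/6J strain, 14 weeks old, and had received 1.75% dextran sulfate sodium (DSS) in the drinking water, which damages the lining of the colon and so gives acute colitis. The labels give the DSS period as 3 days in one field and as 7 days in another, and no mice without DSS are among the samples. Each sample was RNA of entire colons pooled from 3 mice and hybridised to a 1-colour Agilent array, with 2 arrays from STAP-2-/- mice and 2 from WT mice. The labels number the pools of each genotype 1 and 2 and do not say what pools of equal number have in common.

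EGF family ligands are made as membrane-anchored precursors, and proteases of the ADAM family release the soluble growth factor. Areg, Ereg, Hbegf, Tgfa, Btc and Egf bind the receptor tyrosine kinase EGFR, while Nrg1 binds ERBB3 and ERBB4. ERBB2 has no known ligand of its own and acts as the partner of the other receptors, and ERBB3 has little kinase activity and signals through such pairs. In the colon this family drives the proliferation of crypt cells and the closure of epithelial wounds, and mice with impaired EGFR signalling are known to have more severe DSS colitis.

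Values are log2 of the processed spot signal relative to the 75th percentile of all non-control spots of the array, which was 2280 and 2348 on the STAP-2-/- arrays and 2134 and 2215 on the WT arrays. The share of non-control spots well above background was 68.4% to 70.5%, no spot was saturated, and the number of arrays limits the precision. The Stap2 probe read -6.63 and -7.72 on the STAP-2-/- arrays, where it was not well above background, against 2.92 and 2.98 on the WT arrays. It was at least 722-fold lower in STAP-2-/- colons (limma adjusted p = 0.316), a bound that sets each dim array at the lowest signal well above background there, or at its own value where that is higher. Epithelial markers of colon, among them Car1, Cdx2 and Vil1, were well above background on all 4 arrays for 8 of 8 genes with a probe. The STAP-2-/- arrays differed from each other with an SD of 0.610 (log2) over 15145 genes, and the WT arrays with one of 0.398. It was smaller across genotypes between arrays of equal number, at 0.317 for number 1 and 0.359 for number 2. All 4 arrays shared 1 slide and 1 scan, with STAP-2-/- 1 and 2 at positions 2 and 4 and WT 1 and 2 at positions 1 and 3, so number and position cannot be told apart. In the main fits, the p-values by genotype are set against the spread between the pools of a genotype, which includes any shift by number. Those by number are set against the spread between the STAP-2-/- and WT arrays of a number, which includes any genotype difference. An exact permutation test of 2 against 2 arrays cannot go below a two-sided p of 0.333, so the fit over all genes was used.

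By genotype, 7 of the 10 members were lower in STAP-2-/- colons and 3 were higher, with a median log2 difference of -0.28, against -0.01 over all tested genes, of which 51.7% were lower and 48.3% higher. In 4 members the 2 STAP-2-/- arrays did not overlap the 2 WT arrays: Areg, Btc and Egfr were lower and Erbb2 was higher. Over all tested genes the genotypes did not overlap in 24.9%, with 13.3% lower and 11.5% higher. No member passed the limma test (adjusted p = 1.0 for each of the 10), and neither did any other gene: 0 of 15551 (0%) had an adjusted p under 0.05, while 325 (2.09%) had an unadjusted p under 0.05. In whole colons, fewer cells of a type and less RNA per cell cannot be told apart. Without STAP-2-/- 1 the members that were lower numbered 5 with a median of 0.09, and without STAP-2-/- 2 they numbered 8 with a median of -0.56. They numbered 7 without WT 1, with a median of -0.31, and 6 without WT 2, with a median of -0.11.

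**Figure D1:**
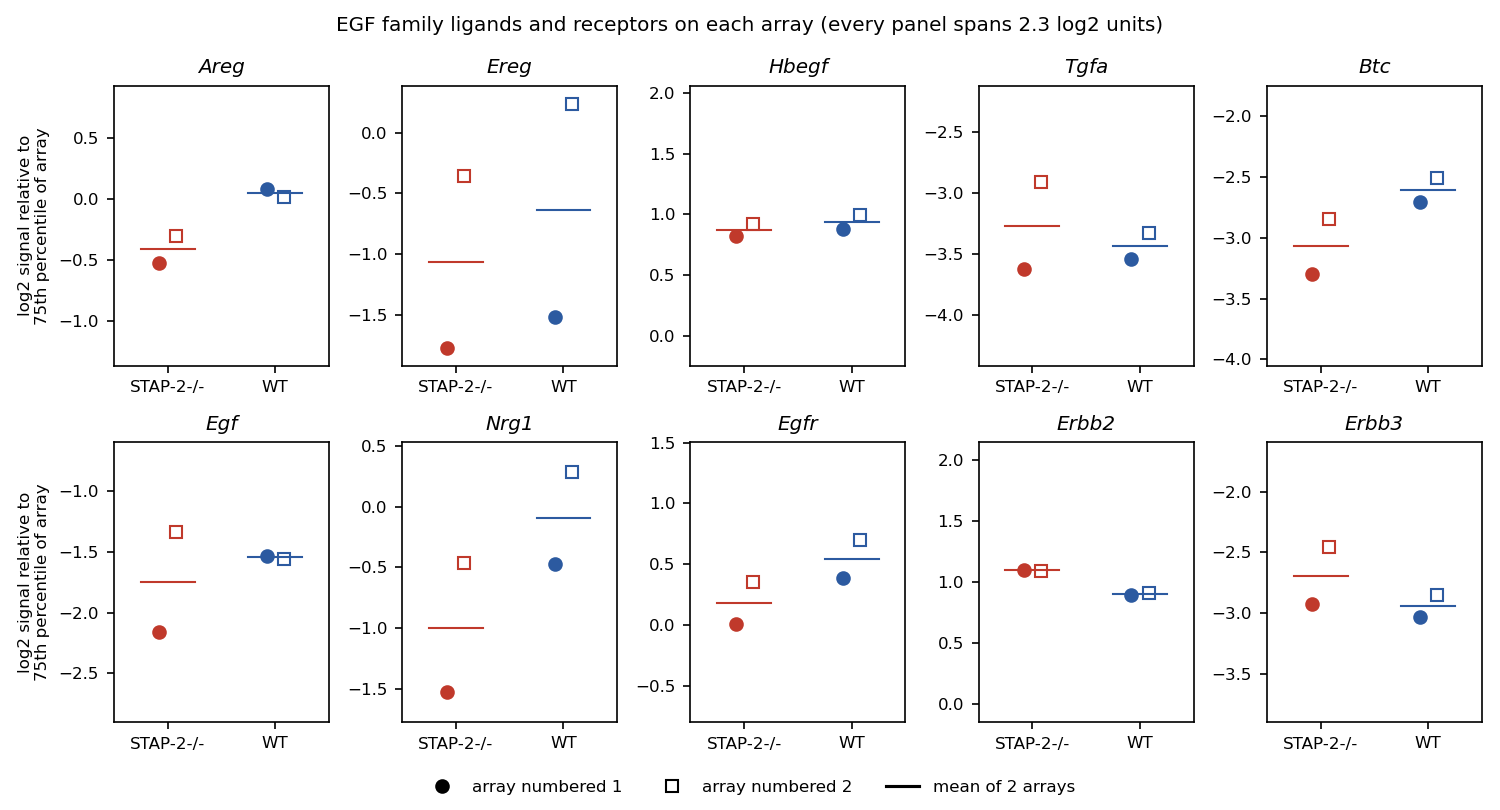
Each panel gives a member's log2 signal relative to the 75th percentile of the array (y axis, the same span in each panel) in STAP-2-/- colons (red) and WT colons (blue), with filled circles for arrays numbered 1, open squares for arrays numbered 2 and a line at the mean of the 2 arrays. The groups are apart for Areg, Btc, Egfr and Erbb2, and Ereg and Nrg1 have the widest ranges, 2.01 and 1.81.

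Among the ligands, amphiregulin (Areg), a low-affinity EGFR ligand made by injured epithelium and by several immune cell types, was -0.52 and -0.30 on the STAP-2-/- arrays, against 0.08 and 0.02 on the WT arrays. Both STAP-2-/- values lay below both WT values. The means were -0.41 ± 0.15 in STAP-2-/- and 0.05 ± 0.04 in WT colons (SD, n = 2 each), a 1.38-fold lower level in STAP-2-/- colons (log2 difference -0.47, SE 0.15, limma unadjusted p = 0.0360, adjusted p = 1.0). With 1 array left out the difference ran from -0.58 to -0.36. The difference was -0.61 among arrays numbered 1 and -0.33 among arrays numbered 2.

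Betacellulin (Btc), which binds EGFR and ERBB4, was -3.30 and -2.84 on the STAP-2-/- arrays, against -2.70 and -2.51 on the WT arrays. These groups did not overlap either, although STAP-2-/- 2 and WT 1 were close. The log2 difference was -0.47 (SE 0.22, limma adjusted p = 1.0), 1.38-fold lower in STAP-2-/- colons, and leaving out STAP-2-/- 2 gave -0.69, leaving out STAP-2-/- 1 gave -0.24.

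Areg and Btc lie on chromosome 5 with the ligand genes Ereg and Epgn, in the order Epgn, Ereg, Areg, Btc and with no other protein-coding gene between them in the RefSeq table. Across this cluster the log2 difference by genotype was -0.20 for Epgn (epigen), -0.42 for Ereg, -0.47 for Areg and -0.47 for Btc. By array number it was -0.32, -1.58, -0.08 and -0.32 in the same order. All 4 genes of the cluster thus had negative genotype differences, but only Areg and Btc separated the genotypes, and Ereg alone had a difference by number over 1 in size.

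Epiregulin (Ereg), an EGFR and ERBB4 ligand induced in inflamed tissue, was -1.77 and -0.36 on the STAP-2-/- arrays, against -1.52 and 0.24 on the WT arrays. Its values separated by number, not by genotype: both arrays numbered 2 were high. The genotype difference was -0.42 (SE 0.82, limma adjusted p = 1.0), and its sign turned when STAP-2-/- 1 (0.28) or WT 2 (0.45) was left out. Within each number STAP-2-/- was the lower array, by -0.25 among arrays numbered 1 and by -0.60 among arrays numbered 2.

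Heparin-binding EGF-like growth factor (Hbegf), which also binds heparan sulfate, varied least among the ligands. It was 0.82 and 0.92 on the STAP-2-/- arrays, against 0.88 and 0.99 on the WT arrays, with a genotype difference of -0.07 (SE 0.14). Its whole range over the 4 arrays was 0.17.

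Tgfa, the transforming growth factor alpha of the surface epithelium, was measured by 10 spots on each array. It was -3.63 and -2.91 on the STAP-2-/- arrays, against -3.54 and -3.33 on the WT arrays, with SDs between spots of 0.05 to 0.09. The STAP-2-/- 2 array was above the others, with every unflagged spot there above every unflagged spot of the other 3 arrays. The genotype difference was 0.17 (SE 0.30, limma adjusted p = 1.0), and it was -0.19 without STAP-2-/- 2.

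Egf itself, also measured by 10 spots, was -2.16 and -1.34 on the STAP-2-/- arrays, against -1.53 and -1.56 on the WT arrays. The WT pools were nearly equal, while the STAP-2-/- pools lay on either side of them, 0.82 apart and with spot ranges that met no WT spot range except between STAP-2-/- 2 and WT 1. SDs between spots were 0.05 to 0.06. The genotype difference of -0.20 (SE 0.32, limma adjusted p = 1.0) became 0.21 without STAP-2-/- 1.

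Neuregulin 1 (Nrg1), the ERBB3 ligand that stromal cells of the gut supply to the epithelium, had the most negative genotype difference of the 10 members. It was -1.53 and -0.46 on the STAP-2-/- arrays, against -0.48 and 0.28 on the WT arrays. The groups overlapped narrowly, since STAP-2-/- 2 and WT 1 were almost equal. The means were -0.995 ± 0.75 in STAP-2-/- and -0.10 ± 0.54 in WT colons (SD, n = 2 each), a 1.86-fold lower level in STAP-2-/- colons (log2 difference -0.90, SE 0.48, limma adjusted p = 1.0). STAP-2-/- was the lower array within each number, by -1.05 among arrays numbered 1 and by -0.75 among arrays numbered 2. With the number as a block Nrg1 had the smallest unadjusted limma p of the 10 members (0.00546, adjusted p = 0.699). Without STAP-2-/- 1 the difference was -0.37, and without STAP-2-/- 2 it was -1.43.

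Markers of several other cell types also differed by genotype, in either direction and some of them through 1 array, while other lists differed by little. All 5 of 5 fibroblast markers were lower in STAP-2-/- colons, with a median of -0.41, but without WT 2 the median was 0.00 with 3 higher and 2 lower, and without WT 1 it was -0.79. Their summed signal, in units of the 75th percentile, was 62.6 and 58.3 on the STAP-2-/- arrays, against 67.2 and 83.7 on the WT arrays. Most of this sum was Dcn, at log2 values of 5.49 and 5.27 on the STAP-2-/- arrays, against 5.63 and 5.66 on the WT arrays. All 4 enteric glia markers and all 4 enteric neuron markers were lower too, with medians of -0.31 and -0.28, the glial sum being 0.93 and 1.14 on the STAP-2-/- arrays, against 1.25 and 1.40 on the WT arrays. Without STAP-2-/- 1 the glial median was -0.13, with 2 of 4 lower, and the neuronal median was -0.20, with 3 of 4 lower. All 5 smooth muscle markers were lower (median -0.14), but without WT 1 the median was -0.11 with 2 higher and 3 lower. All 5 T cell markers were higher (median 0.42, and 0.27 to 0.58 with 1 array left out), and the 8 colon epithelium markers had a median of 0.01. Medians were -0.01 for macrophage and monocyte markers, -0.08 for mast cell markers and 0.06 for markers of stratified squamous epithelium. All 3 B cell markers were lower (median -0.89), as were both neutrophil markers that could be tested (S100a8 by -1.16 and S100a9 by -0.97), and in these 2 lists no marker separated the genotypes. The B cell median was 0.24 without STAP-2-/- 2, and the neutrophil median, -1.07, was 1.13 without WT 2. None of these markers passed the limma test, and the part of these cell types in the differences of Areg, Btc and Nrg1 was not tested.

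Among the receptors, Egfr, which binds the EGF-like ligands, was 0.00 and 0.35 on the STAP-2-/- arrays, against 0.39 and 0.70 on the WT arrays, each the mean of 10 spots with SDs of 0.04 to 0.08. The groups did not overlap, but the gap between STAP-2-/- 2 and WT 1 was smaller than the range of the spots. The log2 difference was -0.36 (SE 0.21, limma adjusted p = 1.0), 1.29-fold lower in STAP-2-/- colons, and it ran from -0.54 without STAP-2-/- 2 to -0.19 without STAP-2-/- 1. The 2 other Egfr probes, which target another RefSeq transcript of the gene and were dimmer, gave genotype differences of -0.02 and -0.00. They were -1.82 and -1.11 for the second probe on the STAP-2-/- arrays, against -1.54 and -1.36 on the WT arrays, and -1.96 and -1.49 for the third, against -1.82 and -1.62. So the lower Egfr signal by genotype was seen with the brightest probe alone, and the mean of the 3 probes differed by -0.13. By number the 3 probes gave -0.33, -0.45 and -0.33.

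**Figure D2:**
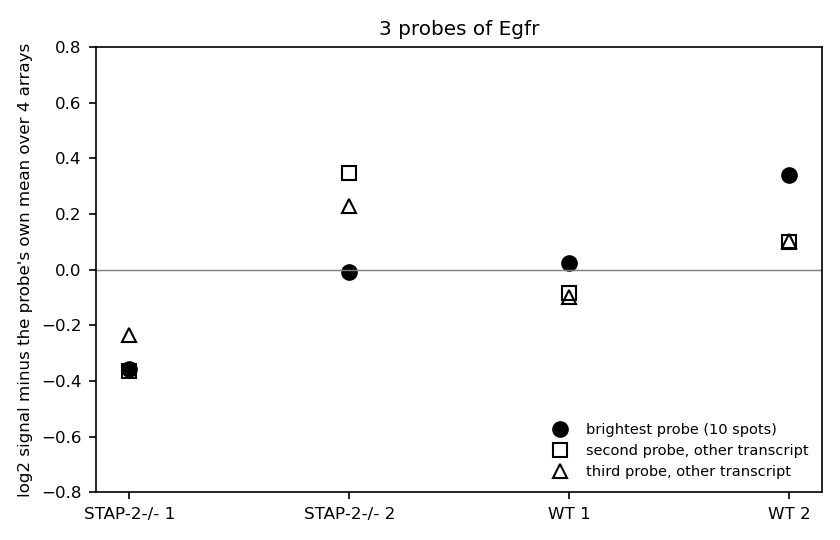
The log2 signal of the 3 Egfr probes minus each probe's own mean over the 4 arrays (y axis) is plotted by array (x axis). All 3 are lowest on STAP-2-/- 1, but the brightest probe (filled circles) is highest on WT 2 and the other probes (open symbols) are highest on STAP-2-/- 2.

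Erbb2, the ligandless partner receptor, was the member with the smallest spread within genotypes. It was 1.102 and 1.091 on the STAP-2-/- arrays, against 0.90 and 0.91 on the WT arrays, each the mean of 7 or 8 unflagged spots of 10 with SDs of 0.03. Every unflagged spot on the STAP-2-/- arrays, from 1.04 to 1.14, was above every unflagged spot on the WT arrays, from 0.84 to 0.94. The means were 1.096 ± 0.01 in STAP-2-/- and 0.90 ± 0.01 in WT colons (SD, n = 2 each), 1.14-fold higher in STAP-2-/- colons. Its log2 difference of 0.19 (SE 0.12) had a limma adjusted p of 1.0, in a test that weights a gene's own spread with that of all genes, and it ran from 0.17 to 0.20 over the alternatives. Spots of an array share its RNA and are not replicates of the genotype.

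Erbb3, the receptor for Nrg1, was -2.92 and -2.46 on the STAP-2-/- arrays, against -3.03 and -2.85 on the WT arrays. STAP-2-/- 2 was the high array, and STAP-2-/- 1 lay between both WT values. The genotype difference was 0.25 (SE 0.22, limma adjusted p = 1.0), and without STAP-2-/- 2 it was 0.02. In the STAP-2-/- colons Nrg1 thus had a negative difference and its receptor a positive one, neither past the test.

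**Figure D3:**
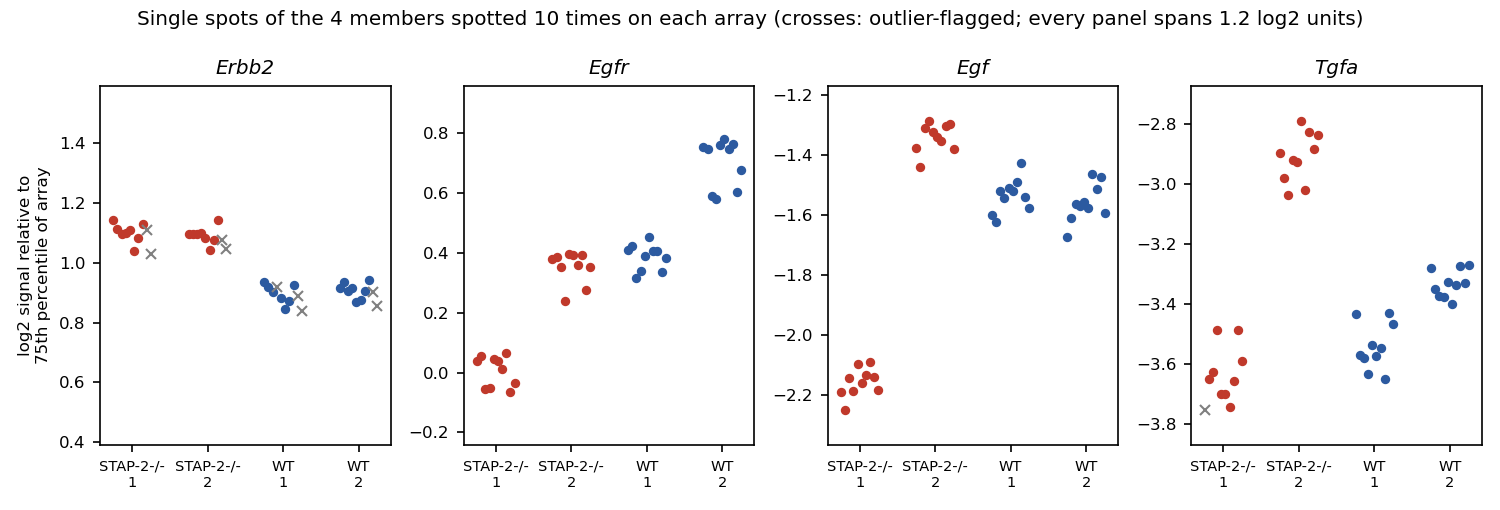
Single spots of the 4 members printed 10 times on each array are shown as log2 signal relative to the 75th percentile (y axis, the same span in each panel) by array, red for STAP-2-/- and blue for WT, with outlier-flagged spots as crosses. Erbb2 separates by genotype with the arrays of a genotype on top of each other, Egfr ascends in steps over the arrays, and the Egf and Tgfa spots are highest on STAP-2-/- 2.

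The promoter windows of the 4 members whose genotypes did not overlap are shown because their signals separated the groups. They run from 250 bases before to 50 after the gene's start and come from RefSeq on GRCm38.p6. Windows of 6 of the 10 members were examined here, and whether the reference holds windows for the others is not stated. Capitals mark matches, on either strand, to the STAT motif TTCNNNGAA, the AP-1 motif TGANTCA, the cAMP response element (CRE) TGACGTCA, the GC box GGGCGG and the TATA motif TATAAA.
Areg, chr5:91139349-91139648, + strand: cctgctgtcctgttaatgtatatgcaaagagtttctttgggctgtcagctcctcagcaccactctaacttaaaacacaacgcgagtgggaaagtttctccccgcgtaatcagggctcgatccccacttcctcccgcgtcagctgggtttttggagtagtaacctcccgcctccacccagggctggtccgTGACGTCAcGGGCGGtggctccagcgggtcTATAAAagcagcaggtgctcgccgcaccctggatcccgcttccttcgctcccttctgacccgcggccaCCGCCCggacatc
Btc, chr5:91402945-91403244, - strand: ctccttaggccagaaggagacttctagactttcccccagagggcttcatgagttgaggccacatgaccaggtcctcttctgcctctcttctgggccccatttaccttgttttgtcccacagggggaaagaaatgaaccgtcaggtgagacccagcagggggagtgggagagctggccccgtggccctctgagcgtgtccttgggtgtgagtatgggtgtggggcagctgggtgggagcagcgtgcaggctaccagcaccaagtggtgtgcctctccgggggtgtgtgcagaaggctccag
Egfr, chr11:16751953-16752252, + strand: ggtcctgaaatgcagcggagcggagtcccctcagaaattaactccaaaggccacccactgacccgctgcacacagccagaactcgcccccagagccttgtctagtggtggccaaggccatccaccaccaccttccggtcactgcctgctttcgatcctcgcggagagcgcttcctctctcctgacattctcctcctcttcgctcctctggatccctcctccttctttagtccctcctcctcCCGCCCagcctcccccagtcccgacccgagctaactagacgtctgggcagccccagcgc
Erbb2, chr11:98412234-98412533, + strand: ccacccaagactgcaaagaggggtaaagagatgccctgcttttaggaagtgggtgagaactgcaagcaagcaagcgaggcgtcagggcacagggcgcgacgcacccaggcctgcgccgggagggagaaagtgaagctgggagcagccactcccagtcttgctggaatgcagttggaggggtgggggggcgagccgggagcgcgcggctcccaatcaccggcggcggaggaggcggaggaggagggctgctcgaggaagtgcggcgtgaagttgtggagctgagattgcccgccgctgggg
The Areg window held a CRE starting 61 bases before the start, a GC box 52 bases before it, next to the CRE with 1 base between, a TATA motif 31 bases before it and another GC box 38 bases after the start. The Egfr window held 1 GC box, and the Btc and Erbb2 windows held none of these motifs. Of 32851 windows of the same length, 1.79% held the CRE, 35.7% the GC box, 13.6% the TATA motif, 8.3% the STAT motif and 7.81% the AP-1 motif. The STAT motif was of interest because STAP-2 binds STAT3, and these letters are not in any of the 4 windows. A match is a description of the sequence and not a bound site.

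By array number, 10 of the 10 members were lower on arrays numbered 1 than on arrays numbered 2, with a median log2 difference of -0.33, against 0.04 over all tested genes, of which 44.8% were lower and 55.2% higher. The Erbb2 difference was -0.00, and its sign turned when outlier-flagged spots were kept. In 5 members (Ereg, Hbegf, Tgfa, Nrg1 and Erbb3) both arrays numbered 1 lay below both arrays numbered 2, and over all tested genes 62.4% did not overlap by number, 26.4% being lower and 36% higher. No member passed the limma test. Over all genes 0 of 15551 (0%) had an adjusted p under 0.05 by limma, while 3941 (25.3%) had an unadjusted p under 0.05, against 325 by genotype. With each array left out in turn, 9 of 10 members were lower every time, the exception being Areg or Erbb2. The members' median was -0.12 without STAP-2-/- 1, -0.27 without STAP-2-/- 2, -0.51 without WT 1 and -0.33 without WT 2.

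Ereg had the largest of these differences. It averaged -1.64 ± 0.18 on arrays numbered 1 and -0.06 ± 0.42 on arrays numbered 2 (SD, n = 2 each), 3.00-fold lower on arrays numbered 1 (log2 difference -1.58, SE 0.24, limma unadjusted p = 0.00196, adjusted p = 0.0965). It was present in both genotypes, at -1.41 between the STAP-2-/- pools and -1.76 between the WT pools. Nrg1 followed, 1.88-fold lower on arrays numbered 1 (-0.91, SE 0.45, adjusted p = 0.276), with -1.06 between the STAP-2-/- pools and -0.76 between the WT pools. With 1 array left out Ereg ran from -1.88 to -1.29, and Nrg1 from -1.44 without WT 1 to -0.39 without STAP-2-/- 1.

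Tgfa differed by -0.46 (SE 0.18, limma adjusted p = 0.20), with -0.72 between the STAP-2-/- pools and -0.21 between the WT pools, and Erbb3 by -0.32 (SE 0.17, adjusted p = 0.299), with -0.46 and -0.18. For Egf (-0.40), Egfr (-0.33, brightest probe) and Btc (-0.32) the arrays overlapped by number. These values moved with single arrays: without STAP-2-/- 1 they were -0.09, -0.14 and -0.03, and without WT 1 they were -0.71, -0.52 and -0.62. Both dimmer Egfr probes did not overlap by number and were lower on arrays numbered 1. Tgfa was -0.25 and Erbb3 -0.13 without STAP-2-/- 2, and without WT 2 they were -0.67 and -0.52. Hbegf differed by -0.11 (-0.07 without WT 2) and Areg by -0.08.

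**Figure D4:**
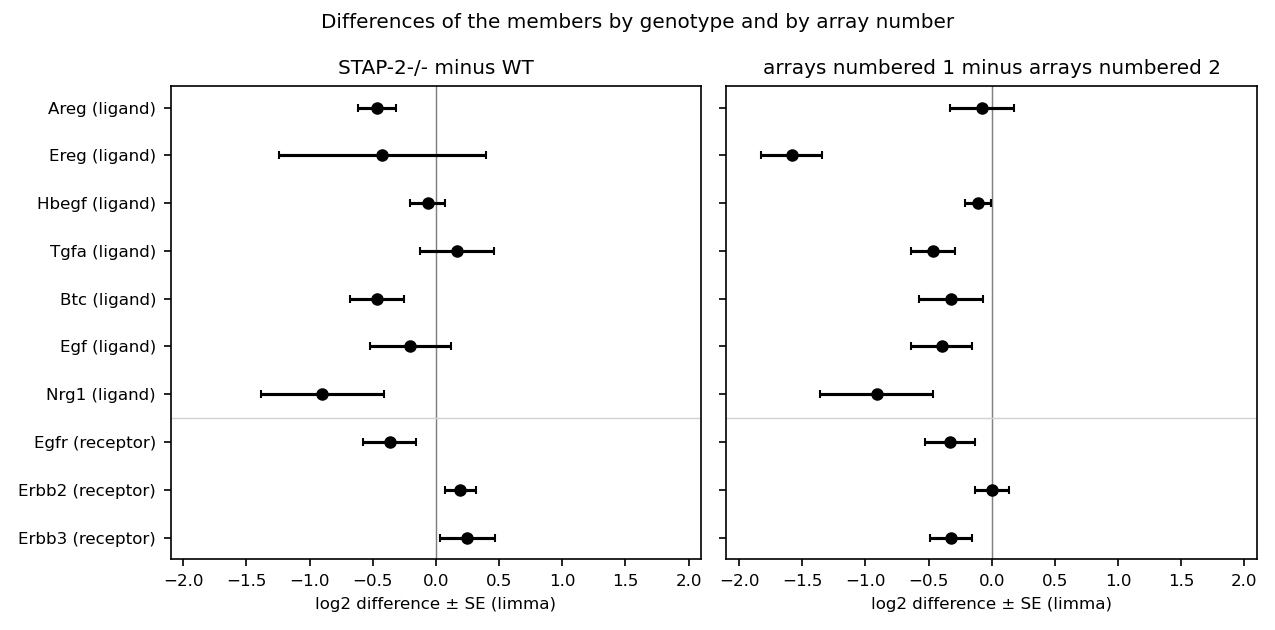
Points are limma log2 differences with SE bars (x axis) of the 10 members (y axis, ligands above receptors), for STAP-2-/- minus WT on the left and for arrays numbered 1 minus arrays numbered 2 on the right, each over 2 against 2 arrays. Ereg stands at -1.58 by number with a short bar and at -0.42 by genotype with a long bar, and Areg and Erbb2 lie near 0 by number.

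Neutrophil markers moved with the array number as well. S100a9, a calprotectin subunit of neutrophils, was -3.71 and -4.08 on arrays numbered 1 (STAP-2-/- and WT), against -1.30 and 1.02 on arrays numbered 2, and the other subunit S100a8 was -4.95 and -4.80, against -3.29 and -1.11. Of the 4 neutrophil markers listed, 3 had a named probe and Cxcr2 was well above background on WT 2 alone. The summed signal of the 3, in units of the 75th percentile, was 0.11 and 0.10 on arrays numbered 1, against 0.516 and 2.497 on arrays numbered 2. Ereg had the same order of arrays as S100a8 but not as S100a9, which was lower on WT 1 than on STAP-2-/- 1. Over all tested genes 26.4% were lower on arrays numbered 1 without overlap. Among fibroblast markers, 4 of 5 were lower on arrays numbered 1 (median -0.62, and -0.20 without WT 2), while the epithelial list had 4 higher and 4 lower (median -0.09). All 5 tested markers of stratified squamous epithelium were higher on arrays numbered 1, with a median of 0.32. Of these 4 did not overlap, while 36% of all tested genes were higher on arrays numbered 1 without overlap. The summed signal of the 9 on the array was 5.89 and 5.70 on arrays numbered 1, against 4.59 and 4.38 on arrays numbered 2. Krt13, Trp63 and Krt10 made up most of this sum. In that list Krt4, Dsg3 and Krt1 were not well above background on any array. Krt6a was well above background only on the arrays numbered 2 and was not tested. It went the other way, at -6.78 and -6.06 on arrays numbered 1 (STAP-2-/- and WT), against -5.74 and -5.56 on arrays numbered 2. The part of these cells in the differences of Ereg and Nrg1 by number was not tested.

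Of the other genes of the family, Nrg3 and Erbb4 were not tested because their probes were not well above background. Nrg4, another neuregulin, was -2.61 and -3.44 on the STAP-2-/- arrays, against -1.99 and -3.06 on the WT arrays. It ran against the 10 members by number, 1.93-fold higher on arrays numbered 1 (limma adjusted p = 0.147), and differed by -0.50 by genotype. Epgn was -3.74 and -3.96 on the STAP-2-/- arrays, against -4.09 and -3.22 on the WT arrays, and Nrg2 varied by little (-0.03 by genotype, 0.19 by number).

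Transcripts for proteins that release the ligands were measured for 6 of 6 genes. By genotype 5 of 6 were lower and 0 passed the limma test, with a median of -0.17; Adam10, which sheds Btc and Egf, differed by -0.23, and Adam9 and Adam12 by -0.30 and -0.24. By number 3 were lower and 3 higher, with Rhbdf1, which controls the transport of Adam17, at 0.31. Of the 14 adaptors and kinases from the receptor to ERK, 8 were higher and 6 lower by genotype, with a median of 0.02 and none past the test. Ptpn11, the phosphatase SHP2, differed by -0.19, Sos1 by -0.22 and the ERK kinase Mapk3 by 0.18, and by number Map2k1 differed by 0.42, Nras by -0.23 and Shc1 by -0.21.

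Feedback inhibitors of the receptor, 15 of 15 measured, were split by genotype, 7 higher and 8 lower, with a median of -0.04 and none past the limma test. Spred2, which restrains Raf, differed by -0.35 and Errfi1, which binds and blocks EGFR, by 0.26. Dusp5, a nuclear ERK phosphatase, was well above background on both STAP-2-/- arrays and on neither WT array. It thus entered the test through the STAP-2-/- arrays alone. Its values were -5.51 and -6.43 on the STAP-2-/- arrays (mean -5.97), against -6.84 and -6.48 on the WT arrays (mean -6.66). STAP-2-/- 2 and WT 2 were almost equal. By the bound used for Stap2 its mean STAP-2-/- level was 1.29-fold or more above WT (limma adjusted p = 1.0), a bound carried by STAP-2-/- 1. By number 10 of 15 were higher on arrays numbered 1, with a median of 0.23, and 0 passed. Their directions were mixed: Spry2 differed by 0.77, while Dusp6, an ERK phosphatase that ERK itself induces, differed by -0.51 and Spred1 by -0.58.

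The 12 genes that ERK signalling induces had a median of 0.01 by genotype, with 6 higher and 6 lower and none past the limma test. Ier3 was -1.48 and -0.70 on the STAP-2-/- arrays, against -0.63 and -0.43 on the WT arrays (difference -0.56), and Myc and Maff differed by 0.26 and 0.18. By number 7 were lower and 5 higher, with 0 past the test, and 9 of the 12 did not overlap, against 62.4% of all tested genes. The growth factor-induced factor Etv5 was lower on arrays numbered 1 (log2 difference -1.32, adjusted p = 0.0941), whereas the immediate-early genes Junb and Fos were 2.01-fold and 1.76-fold higher there (adjusted p = 0.116 and 0.126).

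**Figure D5:**
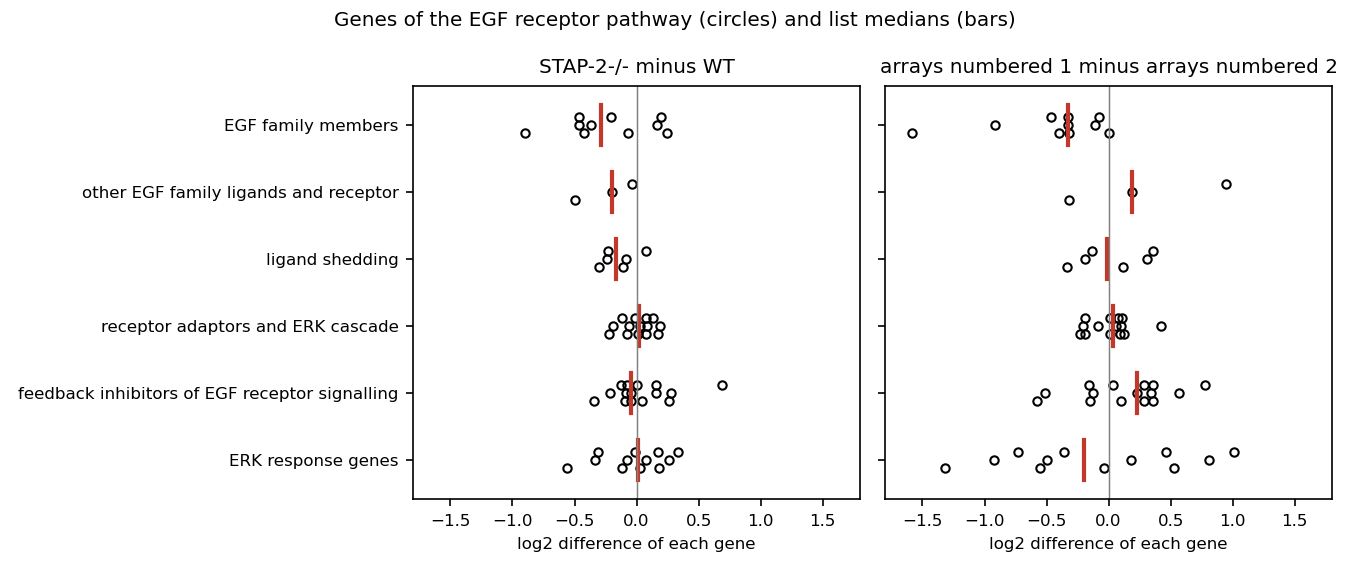
Circles are the limma log2 differences (x axis) of single genes in the EGF family and its pathway lists (y axis), and bars are the list medians, by genotype on the left and by array number on the right. By genotype the medians of the adaptor, inhibitor and response lists lie between -0.04 and 0.02, and by number the 10 members lie at or below 0.

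Genes with the most similar profile over the 4 arrays were sought for Ereg, Nrg1 and Egf, the members with the widest ranges, by the root mean square difference of values centred on each gene. Among 14378 other genes, those nearest to Ereg were the monocyte chemokine Ccl7 (0.07), the fatty acid binding protein Fabp1 (0.14) and the decoy receptor Il1r2 (0.18). Ccl7 was -2.01 and -0.57 on the STAP-2-/- arrays, against -1.57 and 0.07 on the WT arrays. Nearest to Nrg1 were Togaram2, Igf2bp1 and the muscle caveolin Cav3, each at 0.11. Nearest to Egf were Nipal1, Dst and Hc at 0.01 to 0.03. Within 0.2 of Egf lay 1400 genes, against 8 for Ereg and 16 for Nrg1. The range of Egf over the 4 arrays was narrower, at 0.82 against 2.01 and 1.81. A fixed limit is met more easily there, so the counts do not compare how common the profiles were. With 4 arrays the nearest genes are descriptions of likeness only.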

How the data were processed

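RNA of whole colons was measured on 4 Agilent 1-colour mouse arrays, 2 per genotype. Per the file headers, each deposited scanner file gives a processed signal intensity per spot, corrected by the authors for background and for trends within the array but not scaled between arrays, and 0 or 1 flags as other values. The submitters' processing notes name Agilent Feature Extraction 10.7.1.1. Values in the table deposited by the authors are a ratio of that signal to 1 constant for each array (the tolerance of 1% was met by 100% of the probes compared), and they served as an alternative.

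Here signals were divided by the 75th percentile of the array's non-control spots and taken to log2, after leaving out control spots and spots flagged as outliers. Repeated spots were averaged. Target accessions named 27427 of 39429 probes through the RefSeq table of GRCm38.p6, which gave names and gene order only because the array is annotated on mm9. The brightest probe stood for a gene. A gene entered the test when it was measured on all 4 arrays and was well above background on the 2 arrays of STAP-2-/- or of WT. Genotype and array number were each fitted with limma 3.58.1 in R 4.3.3, without a block and with Benjamini-Hochberg adjustment over 15551 genes. The same fit was afterwards run on simulated data with the means and spreads of these genes, drawn independently for each array. Those data held no shift shared by arrays of equal number, and no result here rests on them. Adjusted p-values come from these fits unless a block, another setting or an array left out is named beside them.

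The labels do not say that pools of equal number are paired. Genes named are the 10 members, up to 3 genes of each pathway list and comparison by smallest unadjusted p, Stap2, and the 3 nearest profiles of 3 members with wide ranges. Cell markers named singly, and Six2, were chosen after their values were seen. Members and lists were chosen with earlier results of these data known. Alternatives were 3 other scalings, normexp (offset 50) on median spot and background intensities, the value table, 2 other filters on dim probes, outlier spots retained, averaging over probes, a trended robust fit, a block and leaving out each array. Marker lists without each array were added after seeing the data. Figures were drawn with Python 3.11.15.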

Additional observations from a re-analysis of the deposited data

Results flagged for a closer look

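In Tgfa and Egf the difference between genotypes had opposite signs on the arrays numbered 1 and the arrays numbered 2. For Egf, STAP-2-/- minus WT was -0.62 among arrays numbered 1 and 0.22 among arrays numbered 2, which differ by -0.84. For Tgfa it was -0.08 and 0.42, which differ by -0.51. In Areg the difference between arrays numbered 1 and 2 was -0.22 in STAP-2-/- and 0.06 in WT colons, which differ by -0.28. With 1 array for each genotype and number, none of these contrasts was tested. Opposite signs were listed when both differences were over 0.05.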

How the results depend on the processing

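No alternative brought a member past the adjusted threshold. By genotype the count of genes past it was 0 in the analysis as reported and 1 with normexp background correction, that gene being Stap2, lower in STAP-2-/- colons but not well above background there, so its fold is only bounded (limma adjusted p = 0.00510); it was 0 under the other alternatives, leaving out each array included. By array number it was 0 to 1 with each array left out, the 1 gene, Six2, being lower on arrays numbered 1 without WT 1 (adjusted p = 0.0356), and 0 otherwise.

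Of 150 genotype values of members under the alternatives, 146 kept their sign. The sign turned for Ereg without STAP-2-/- 1 (0.28) and without WT 2 (0.45) in a range from -1.30 to 0.45, for Egf without STAP-2-/- 1 (0.21) in a range from -0.61 to 0.21 and for Tgfa without STAP-2-/- 2 (-0.19) in a range from -0.19 to 0.53. Of 150 values by number, 145 kept their sign. It turned for Areg without STAP-2-/- 1 (0.23) and without WT 2 (0.09) in a range from -0.38 to 0.23. It turned for Erbb2 without STAP-2-/- 2 (0.09), without WT 1 (0.10) in a range from -0.10 to 0.10, and with outlier-flagged spots kept (0.000296). The causes were not tested.

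Egfr lost its separation of genotypes with median scaling and with the mean of its probes, and Nrg1 gained it with normexp. Of all tested genes, 13.6% were lower in STAP-2-/- without overlap with median scaling and 11.9% with the mean of the probes. With normexp it was 17.2%, against 13.3% in the analysis as reported. By number 6 or 7 members were lower without overlap under the 3 other scalings, Egf being added under each and Egfr with median scaling, while 28.8% to 33.3% of all tested genes were lower without overlap there. With the mean of the probes Egfr was added as well, giving 6 members, against 25.2% of all tested genes. Nrg1 lost its separation by number with normexp, where 4 members and 24.5% of all tested genes were lower without overlap.

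The arrays of equal number deviated together from the genotype means (r = 0.631 across 15145 genes, which are not independent replicates). With the number as a replicate block, the genes with an unadjusted genotype p under 0.05 numbered 1040, against 325 without it, and 0 passed the adjusted threshold. The members' genotype adjusted p then ran from 0.699 to 0.876.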
